A study of Mus musculus with 12 samples.

Results

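The mitotic machinery was examined in mouse bone marrow macrophages as the messenger RNA of 47 genes that encode mitotic kinases, centromere and spindle checkpoint proteins, and spindle and cytokinesis factors, out of 54532 genes in the deposited table. Cyclins were not included, nor kinesins other than the kinetochore motor Cenpe. The 47 genes were chosen by symbol, with the antibody comparisons of these libraries already in view, so their antibody values, with the calls and intervals of the fit across all genes, are given as a description and support nothing. All 47 symbols were found, and all passed the filter on low counts in each of the comparisons, with 53 counts in a library at the lowest (Cenpm) and 19238 at the highest (Mki67).

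The cells were macrophages grown from tibial and femoral marrow of wild-type C57BL/6J mice aged 2 to 3 months, in medium with 15% serum and CSF-1, the growth factor of the macrophage lineage, at 12 ng/ml for 24 h and then 120 ng/ml for 48 h. All 12 libraries share this source, and the groups differ in antibody and in surface: 3 libraries each from cells given control IgG or an antibody that neutralizes the α5 integrin subunit (anti-ITGA5), both at 10 µg/ml for 24 h, on uncoated dishes or on dishes coated with 10 µg/ml fibronectin. The integrin α5β1 is a receptor for fibronectin, and the comparisons address what its neutralization and its matrix ligand do to the macrophage transcriptome. The study describes its replicates as independent biological experiments, and the labels do not say whether each came from another animal.

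During mitosis, kinetochores assemble on centromeric chromatin and attach the chromosomes to spindle microtubules, and the spindle checkpoint holds back the anaphase-promoting complex until every kinetochore is attached. That complex, a ubiquitin ligase, then marks securin and mitotic cyclins for destruction, sister chromatids part, and the central spindle and contractile ring divide the cell. Many of these genes are transcribed in G2 phase and mitosis, when promoters with a CCAAT box and a cell cycle genes homology region (CHR) become active, and marrow-derived macrophages divide in CSF-1.

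Promoters were read from RefSeq windows on GRCm38.p6 that hold 250 bases before and 50 bases from the annotated start of a gene, 1 window per gene, and 41 of the 47 genes had a window. Both strands were searched for the CHR as TTTGAA or TTCGAA and for the CCAAT box as CCAAT. Neither motif contains the other. A CHR match was present in 30 of the 41 windows (73.2%), against 18.4% of all 20449 windows and 14% of the 9443 windows of genes tested on uncoated dishes. Among the lists described below, it was in 10 of 26 windows of other kinetochore and centromere genes (38.5%). It was in 4 of 22 windows of other spindle and centrosome genes (18.2%). CCAAT was present in 30 of 41 (73.2%), against 38.2% of all windows and 39.4% of those of genes tested on uncoated dishes. It was also in 17 of 25 windows of DNA replication genes (68%), so it is not particular to the 47 genes. For other kinetochore and centromere genes it was in 15 of 26 (57.7%), and for other spindle and centrosome genes in 10 of 22 (45.5%). In 27 of the 30 genes with a CHR match, a match began within 50 bases of the start. The arrangement of a CCAAT that begins 25 to 40 bases before a CHR, a spacing set after the windows were seen, was found in 9 of the 41 (22%) and in 0.704% of all windows. A match is a description of letters, not a bound site.

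The 120 bases before the start are shown for Ube2c and Cdc20, which ranked 1 and 3 by antibody fold change averaged over both surfaces, and for Cenph and Cenpk, which had the smallest of the members whose RefSeq start lies within 50 bases of the 5′ end of the deposited gene. Plk1 ranked 2 and is not shown. Its only CHR match begins after the start, and no CCAAT begins 25 to 40 bases before it. Ube2c and Cdc20 both have that arrangement, which 9 of the 41 windows hold. Capitals mark the CHR and CCAAT matches, which read TTCAAA and ATTGG where the match is on the other strand.
Ube2c: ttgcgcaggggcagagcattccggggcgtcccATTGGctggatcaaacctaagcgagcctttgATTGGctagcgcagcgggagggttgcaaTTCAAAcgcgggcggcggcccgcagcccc
Cdc20: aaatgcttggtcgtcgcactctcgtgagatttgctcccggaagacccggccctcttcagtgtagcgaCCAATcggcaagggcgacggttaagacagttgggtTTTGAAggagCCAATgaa
Cenph: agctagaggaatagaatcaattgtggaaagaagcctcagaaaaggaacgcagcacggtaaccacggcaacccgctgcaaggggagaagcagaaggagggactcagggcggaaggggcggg
Cenpk: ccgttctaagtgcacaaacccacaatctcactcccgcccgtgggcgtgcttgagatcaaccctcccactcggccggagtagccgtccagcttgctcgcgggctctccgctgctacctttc
The stretches lie at chr2:164769809-164769928 (+ strand), chr4:118437344-118437463 (- strand), chr13:100775900-100776019 (- strand) and chr13:104228491-104228610 (+ strand). The 31 bases nearest the start in Ube2c and the 9 nearest in Cdc20 fall within the deposited gene. In Ube2c the CHR match began at base -29 and CCAAT matches at -88 and -57, counted from the start. Cdc20 had the CHR at -18 with CCAAT at -53 and -8, and Cenph and Cenpk had neither motif in the stretch shown, nor a CHR in the whole window. For 8 of the 41 genes the RefSeq start was over 50 bases from the deposited 5′ end. Among these, Bub3 (CHR at -43) and Pttg1 (neither motif) have starts 148 and 270 bases inside the deposited gene. The windows of Pttg1, Cit, Cenpm and Cdca8 lie wholly inside it and do not reach the start of the gene that was counted, and Cenpm and Cdca8 are among the 30 genes with a CHR match. The CHR matches of Plk1 and Hjurp began at bases 31 and 20 after the start. Members with a CHR match had a median antibody log2 fold change, averaged over both surfaces, of 1.38 (n = 30, 0.34 to 2.30), and those without had 1.18 (n = 11, 0.066 to 1.69), so the ranges overlapped. Bub3 and Hjurp, with the smallest changes apart from Pttg1, both had a CHR match.

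Depth was 12954342 to 22075432 counts on genes per library. Between replicates, chi-square per gene was 2.79 to 8.13 in 3 groups but 11.4 to 25.6 in anti-ITGA5 on uncoated dishes (about 1 is the value for counting error alone). That group therefore stood apart in its spread, and its comparison is also given with each library left out. Itga5, which the antibody targets as a protein, was at 44.5 to 53.1 FPKM in all libraries. All 10 macrophage markers listed (such as Csf1r, Adgre1 and Lyz2) were above 1 FPKM. Their summed level was 9171 to 10039 and 9763 to 9977 FPKM in IgG without and with fibronectin, and 6270 to 7693 and 7511 to 7667 FPKM in anti-ITGA5. By the edgeR test, 5 of these markers were lower and 1 was higher with the antibody on uncoated dishes, and 6 were lower and 1 higher on fibronectin. The summed markers of fibroblasts, erythroid cells, lymphocytes, dendritic cells, and mast cells and basophils were at 0.483 FPKM at most, those of progenitors were at 1.34 to 1.75 FPKM, and those of neutrophils and their precursors at 2.42 to 5.30 FPKM. On fibronectin the progenitor sum was 1.55 to 1.62 FPKM in IgG and 1.45 to 1.51 FPKM in anti-ITGA5, and the edgeR test called the progenitor marker Cd34 (log2 fold change -0.41 ± 0.13, adjusted p 0.0334) and the granulocyte precursor marker Mpo (-0.94 ± 0.33, adjusted p 0.0499) lower with the antibody. The other 2 progenitor markers tested, Meis1 and Cd27, had 0.21 and 0.26, and the other 2 neutrophil and precursor markers tested, Prtn3 and S100a8, had -0.31 and -0.61, all without a call. The part of these marker differences in the member values was not tested.

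Together, the 47 genes took a larger share of the counts with anti-ITGA5 than with IgG on both surfaces. Counts on the 47 genes made up 2097 ± 254 CPM (counts scaled to library total) in IgG and 5242 ± 613 CPM in anti-ITGA5 on uncoated dishes, and 2051 ± 313 and 5196 ± 766 CPM on fibronectin (mean ± SD, n = 3 in each). The libraries ranged from 1869 to 2371 with IgG and from 4649 to 5873 with anti-ITGA5 on uncoated dishes, and from 1764 to 2384 and from 4328 to 5778 on fibronectin, so the antibody groups did not overlap. In bulk RNA, a larger share of cells in division and more of these transcripts per dividing cell cannot be told apart.

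**Figure D1:**
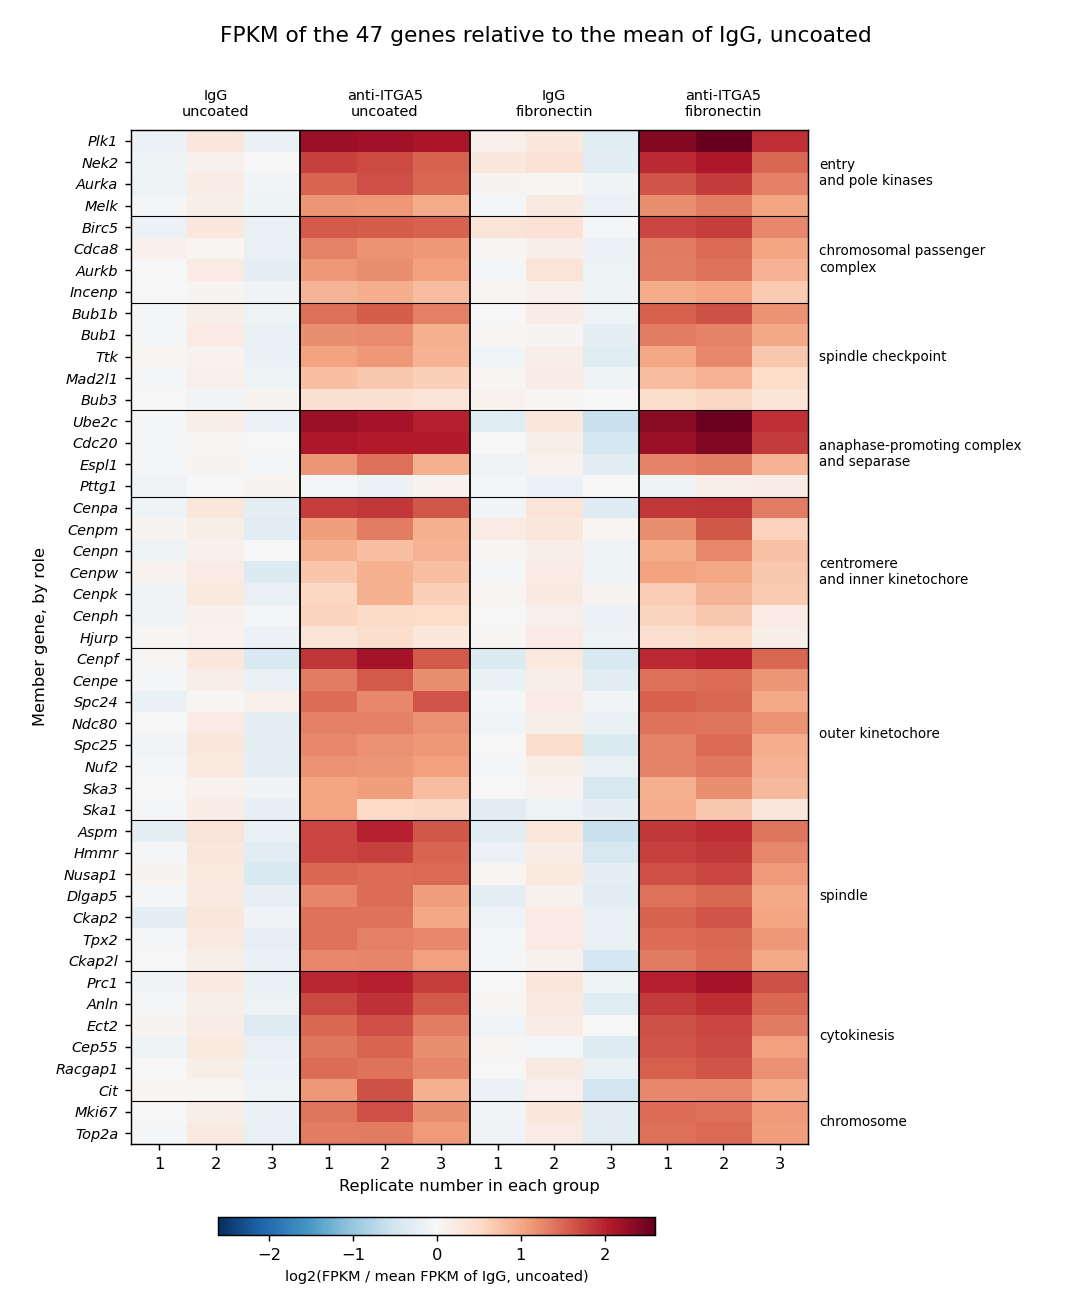
The heat map gives each of the 47 genes (rows, grouped by role) in each of the 12 libraries (columns, numbered by replicate) as log2 of its FPKM over its mean in IgG on uncoated dishes. The 6 anti-ITGA5 columns are red for all genes but Pttg1, and the IgG columns with fibronectin look like those without.

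By the quasi-likelihood test of edgeR, at a Benjamini-Hochberg adjusted p of 0.05 or less, 46 of the 47 genes were higher with anti-ITGA5 on uncoated dishes and none was lower. Of 12924 genes tested, 11.0% were called higher and 9.79% lower. The median log2 fold change was 1.28 over the 47 genes and 0.0090 over all genes tested. A log2 fold change of at least 1 was reached by 36 of the 47 and by 1.32% of all genes tested. In FPKM (fragments scaled to gene length and library total), the 3 anti-ITGA5 libraries lay above the 3 IgG libraries for 46 of the 47 genes and for 18.7% of all genes tested. With any 1 library left out, 46 genes were called and the median was between 1.19 and 1.40.

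On fibronectin, 46 of the 47 genes were called higher and none lower, beside 14.4% and 13.2% of 12916 genes tested. The median log2 fold change was 1.35 over the 47 genes and -0.0038 over all genes. A log2 fold change of at least 1 was reached by 37 of the 47 and by 1.44% of all genes, and the libraries did not overlap for 45 of the 47 and for 21.7% of all genes. With 1 library left out, 45 or 46 genes were called and the median was between 1.26 and 1.47. Since the 47 genes were selected with these 2 comparisons known, nothing is read from their counts. In FPKM alone, 3 libraries against 3 cannot give a permutation p below 0.1.

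The 4 kinases of mitotic entry and the spindle poles were all higher, and Plk1 had the largest log2 fold change of the 47 genes on uncoated dishes. Plk1, the polo kinase that drives mitotic entry, spindle pole maturation and cytokinesis, lies at chr7:122159439-122169873 (all gene positions on GRCm38) and was at 6.32, 8.59 and 6.23 FPKM in IgG and 32.9, 32.1 and 30.5 FPKM in anti-ITGA5 on uncoated dishes. On fibronectin, Plk1 was at 7.76, 8.52 and 5.64 FPKM in IgG and 36.8, 43.4 and 26.2 FPKM in anti-ITGA5. Every anti-ITGA5 library lay above every IgG library. Its log2 fold change was 2.18 ± 0.11 (SE) on uncoated dishes and 2.27 ± 0.17 on fibronectin, or 4.53-fold and 4.84-fold. Aurka, the Aurora kinase of the spindle poles, went from 7.55 ± 0.959 to 22.4 ± 1.66 FPKM (mean ± SD, n = 3) on uncoated dishes and from 7.57 ± 0.437 to 23.0 ± 4.06 FPKM on fibronectin, a log2 fold change of 1.57 ± 0.096 and 1.60 ± 0.11. The centrosomal kinase Nek2 and the kinase Melk had log2 fold changes of 1.67 and 1.08 on uncoated dishes, so the 4 kinases spanned 1.08 to 2.18.

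The chromosomal passenger complex, which corrects faulty kinetochore attachments and later moves to the central spindle, was higher in all of its 4 genes. Incenp, its scaffold, had the highest level in the complex, at 42.6, 44.9 and 40.1 FPKM in IgG and 78.8, 82.1 and 74.6 FPKM in anti-ITGA5 on uncoated dishes, and at 44.1, 46.8 and 39.0 FPKM in IgG and 82.6, 86.2 and 68.1 FPKM in anti-ITGA5 on fibronectin. The antibody groups of Incenp were apart on both surfaces. Its log2 fold change of 0.89 ± 0.062 and 0.86 ± 0.082 was the smallest of the complex. Aurkb, the kinase subunit, was at 11.0, 12.8 and 9.39 FPKM in IgG and 24.2, 25.7 and 23.1 FPKM in anti-ITGA5 on uncoated dishes, and at 10.8, 14.2 and 10.1 FPKM in IgG and 27.8, 29.3 and 20.6 FPKM in anti-ITGA5 on fibronectin. Its lowest anti-ITGA5 library was above its highest IgG library on either surface, with log2 fold changes of 1.14 ± 0.098 and 1.14 ± 0.13. Birc5 (survivin) had the largest fold change of the complex on both surfaces, 1.57 ± 0.10 on uncoated dishes and 1.39 ± 0.13 on fibronectin, and Cdca8 (borealin) had 1.20 ± 0.081 and 1.26 ± 0.10. Cdca8 is 1 of 24 members that overlap another annotated gene and may share reads with it, as the strand used in counting is not given in the sources used here.

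Among the 5 spindle checkpoint genes the values spread widely. Bub1b, which encodes BubR1 of the mitotic checkpoint complex, was at 9.37, 10.5 and 8.70 FPKM in IgG and 25.9, 28.4 and 23.6 FPKM in anti-ITGA5 on uncoated dishes, and at 9.44, 10.9 and 8.68 FPKM in IgG and 27.9, 30.2 and 21.4 FPKM in anti-ITGA5 on fibronectin. Its antibody groups were separated by a wide gap, and its log2 fold change was 1.45 ± 0.090 and 1.45 ± 0.11. The checkpoint kinase Bub1 went from 10.8 ± 1.50 to 23.6 ± 2.64 FPKM on uncoated dishes and from 10.5 ± 1.16 to 25.1 ± 3.06 FPKM on fibronectin, with log2 fold changes of 1.13 ± 0.11 and 1.26 ± 0.091. Bub3, the partner that brings both Bub proteins to the kinetochore, lies at chr7:131560222-131571895 and was at 11.2, 10.7 and 11.8 FPKM in IgG and 14.8, 14.7 and 14.1 FPKM in anti-ITGA5 on uncoated dishes. On fibronectin Bub3 was at 11.9, 11.5 and 11.1 FPKM in IgG and 15.5, 16.4 and 14.3 FPKM in anti-ITGA5. Its groups did not overlap on either surface, and its log2 fold change was 0.38 ± 0.057 and 0.42 ± 0.055, or 1.30-fold and 1.34-fold. Mad2l1, which encodes the checkpoint protein Mad2, had 0.70 and 0.71, and the kinase Ttk (Mps1) had 1.03 and 1.04.

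The genes of the anaphase-promoting complex and separase held the largest of the 47 values on fibronectin (Ube2c) and the smallest on both surfaces (Pttg1). Ube2c, the ubiquitin-conjugating enzyme of the anaphase-promoting complex, lies at chr2:164769898-164778822 and was at 5.63, 6.57 and 5.24 FPKM in IgG and 27.7, 26.0 and 23.8 FPKM in anti-ITGA5 on uncoated dishes. On fibronectin it was at 4.68, 7.16 and 3.88 FPKM in IgG and 29.7, 34.4 and 21.8 FPKM in anti-ITGA5. The 6 anti-ITGA5 libraries were all far above the 6 IgG libraries, with log2 fold changes of 2.15 ± 0.092 and 2.44 ± 0.19, or 4.45-fold and 5.41-fold. Cdc20, the activator of the complex and the target of the checkpoint, lies at chr4:118432901-118437352. It was at 6.63, 6.96 and 6.87 FPKM in IgG and 29.5, 28.5 and 28.3 FPKM in anti-ITGA5 on uncoated dishes, and at 6.75, 7.62 and 4.97 FPKM in IgG and 31.7, 36.0 and 24.2 FPKM in anti-ITGA5 on fibronectin. On uncoated dishes its replicates lay close together in both groups, with an SD of 0.171 FPKM in IgG and 0.627 FPKM in anti-ITGA5. The log2 fold change of Cdc20 was 2.08 ± 0.065 and 2.24 ± 0.15, and the gene overlaps Elovl1 on the other strand, which was at a mean of 39.5 FPKM. Espl1, separase, which cuts cohesin, had 1.19 ± 0.12 and 1.29 ± 0.11.

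Pttg1, which encodes securin, the inhibitor that separase sheds at anaphase, was the exception. The gene lies at chr11:43420250-43426251 and was at 5.53, 5.96 and 6.16 FPKM in IgG and 5.70, 5.26 and 6.24 FPKM in anti-ITGA5 on uncoated dishes. On fibronectin Pttg1 was at 5.76, 5.28 and 5.82 FPKM in IgG and 5.44, 6.66 and 6.77 FPKM in anti-ITGA5. All 4 groups overlapped. Its log2 fold change was -0.027 ± 0.099 on uncoated dishes and 0.16 ± 0.11 on fibronectin, with 95% intervals of -0.25 to 0.19 and -0.077 to 0.40. The upper bound on uncoated dishes lay below the log2 fold change of each of the other 46 genes, and the one on fibronectin lay below each but that of Hjurp.

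**Figure D2:**
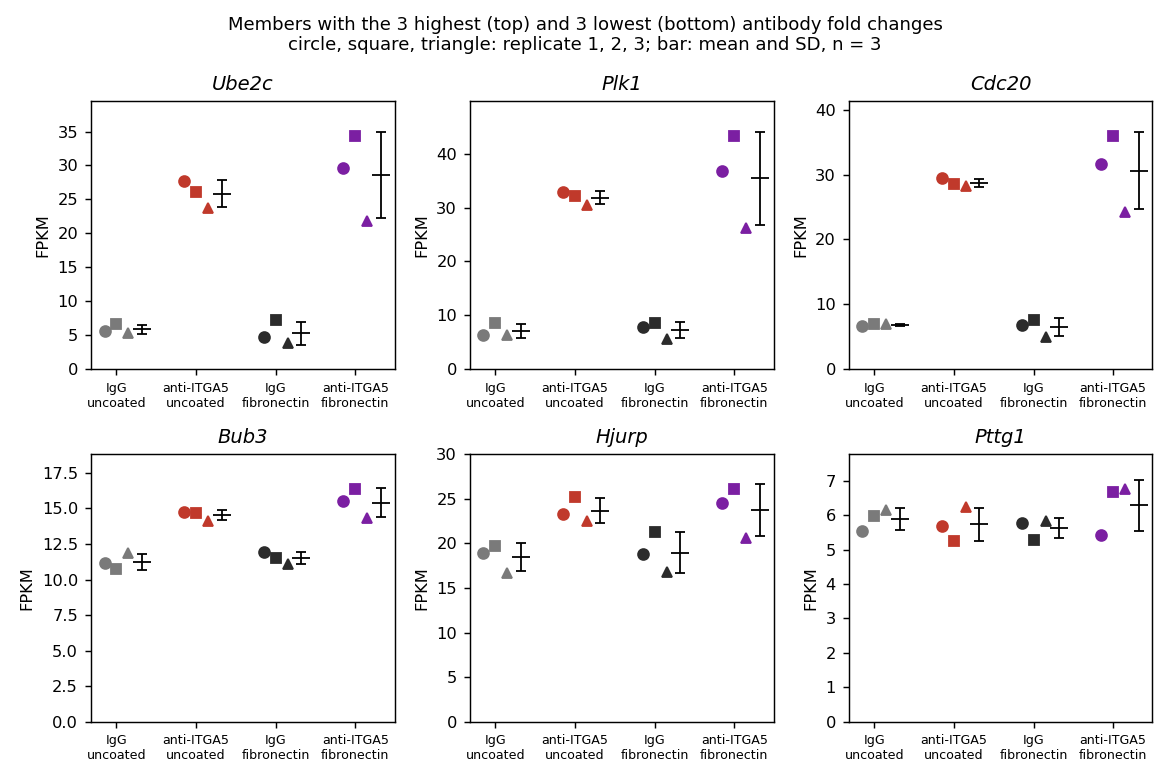
Each panel plots the FPKM of 1 gene in the 12 libraries by group, with markers for the replicate numbers and a bar for the mean and SD (n = 3), on an axis from 0. Ube2c, Plk1 and Cdc20 stand several-fold higher in both anti-ITGA5 groups, Bub3 and Hjurp sit slightly higher there, and the groups of Pttg1 overlap.

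At the centromere and inner kinetochore, all 7 genes were higher with the antibody, but this group had the lowest median of the 9 roles, 0.81 on uncoated dishes and 0.89 on fibronectin. Cenpa, the histone H3 variant that marks centromeres, was at 3.88, 5.16 and 3.58 FPKM in IgG and 14.6, 15.1 and 12.8 FPKM in anti-ITGA5 on uncoated dishes, and at 4.0, 5.38 and 3.33 FPKM in IgG and 15.0, 15.3 and 10.7 FPKM in anti-ITGA5 on fibronectin. Its groups were well separated, with log2 fold changes of 1.75 ± 0.12 and 1.68 ± 0.16. Hjurp, the chaperone that deposits that histone, lies at chr1:88262471-88277633 and had a much smaller difference. It was at 19.0, 19.7 and 16.7 FPKM in IgG and 23.3, 25.2 and 22.5 FPKM in anti-ITGA5 on uncoated dishes, which did not overlap, and at 18.8, 21.3 and 16.8 FPKM in IgG and 24.5, 26.2 and 20.6 FPKM in anti-ITGA5 on fibronectin, which did. The log2 fold change of Hjurp was 0.36 ± 0.073 and 0.32 ± 0.088, and its call on fibronectin was lost when IgG replicate 1 or 3 or anti-ITGA5 replicate 1 or 2 was left out, with adjusted p between 0.0686 and 0.0793 in edgeR. With all libraries it was also lost in DESeq2 (adjusted p 0.0719) and in the 3 limma fits on log2 FPKM (adjusted p 0.0850 to 0.206). Cenph, of the constitutive centromere network, had 0.52 ± 0.089 and 0.52 ± 0.12, and the other 4 (Cenpk, Cenpm, Cenpn and Cenpw) had 0.70 to 1.12 on uncoated dishes and 0.61 to 1.02 on fibronectin.

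The genes of the outer kinetochore, the layer that meets the spindle microtubules, were all higher. Spc25, of the Ndc80 complex, went from 7.07 ± 1.30 to 16.1 ± 0.751 FPKM on uncoated dishes and from 7.38 ± 2.12 to 16.8 ± 2.98 FPKM on fibronectin. The 4 subunits of that complex, Ndc80, Nuf2, Spc24 and Spc25, lay close together, with log2 fold changes of 1.14 to 1.46 on uncoated dishes and of 1.18 to 1.35 on fibronectin. Cenpe, a kinetochore motor, was at 6.37, 7.36 and 5.81 FPKM in IgG and 16.4, 19.7 and 15.1 FPKM in anti-ITGA5 on uncoated dishes, and at 5.82, 7.32 and 5.38 FPKM in IgG and 17.6, 17.7 and 14.5 FPKM in anti-ITGA5 on fibronectin. Its groups did not overlap, and its log2 fold change was 1.39 ± 0.11 and 1.42 ± 0.10. Cenpf, a large coiled-coil protein of the outer kinetochore, had the largest change here (1.90 ± 0.17 and 1.97 ± 0.16). Ska1 had the smallest (0.72 ± 0.15 and 0.88 ± 0.15) and its partner in the Ska complex, Ska3, which overlaps Sap18 (mean 17.0 FPKM), had 0.98 and 1.07.

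The 7 spindle genes had a narrow range of log2 fold changes, 1.20 to 1.80 on uncoated dishes and 1.36 to 1.87 on fibronectin. Tpx2, which activates Aurora A and nucleates microtubules near chromosomes, was at 13.3, 16.2 and 11.8 FPKM in IgG and 36.8, 34.0 and 32.7 FPKM in anti-ITGA5 on uncoated dishes, and at 13.4, 15.9 and 12.1 FPKM in IgG and 37.7, 38.9 and 29.9 FPKM in anti-ITGA5 on fibronectin. All 6 anti-ITGA5 libraries were higher than all 6 IgG libraries, with log2 fold changes of 1.33 ± 0.099 and 1.36 ± 0.10. The microtubule-associated Nusap1 went from 6.35 ± 1.42 to 17.5 ± 0.255 FPKM on uncoated dishes and from 6.50 ± 1.05 to 18.4 ± 4.09 FPKM on fibronectin. Nusap1 overlaps Oip5 on the other strand (mean 6.52 FPKM). Ckap2l, a spindle protein, had 1.20 ± 0.092 and 1.40 ± 0.13, the smallest value of the 7 on uncoated dishes. Aspm, a spindle pole protein, and Hmmr, which binds hyaluronan and spindle microtubules, had the largest values on both surfaces.

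Cytokinesis genes, 6 in number, had log2 fold changes of 1.26 to 1.93 on uncoated dishes and of 1.31 to 1.89 on fibronectin. Racgap1, of the centralspindlin complex that positions the cleavage furrow, was at 9.54, 10.7 and 8.71 FPKM in IgG and 26.4, 25.7 and 23.3 FPKM in anti-ITGA5 on uncoated dishes. On fibronectin it was at 9.71, 11.4 and 8.49 FPKM in IgG and 28.2, 30.1 and 22.0 FPKM in anti-ITGA5. Its antibody groups did not overlap, and its log2 fold change was 1.38 ± 0.080 and 1.44 ± 0.11. Cep55, which recruits the abscission machinery to the midbody, went from 6.96 ± 1.18 to 18.1 ± 1.95 FPKM on uncoated dishes and from 6.52 ± 0.855 to 19.6 ± 4.51 FPKM on fibronectin. Prc1, the bundler of central spindle microtubules, had the largest values (1.93 ± 0.10 and 1.89 ± 0.12), followed by the contractile ring scaffold Anln (1.74 and 1.75) on both surfaces. The cytokinesis gene Ect2 and the citron kinase gene Cit had 1.51 and 1.26 on uncoated dishes.

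The 2 genes of mitotic chromosomes were among the 3 most abundant members per length. Mki67, which encodes Ki-67 of the chromosome periphery, was at 35.3, 40.5 and 31.6 FPKM in IgG and 93.4, 114 and 82.2 FPKM in anti-ITGA5 on uncoated dishes, and at 34.1, 43.0 and 29.7 FPKM in IgG and 98.5, 96.9 and 77.3 FPKM in anti-ITGA5 on fibronectin. Top2a, the topoisomerase that untangles sister chromatids, was at 26.9, 32.7 and 24.4 FPKM in IgG and 70.4, 71.7 and 60.6 FPKM in anti-ITGA5 on uncoated dishes, and at 26.2, 32.3 and 23.0 FPKM in IgG and 75.8, 78.1 and 59.4 FPKM in anti-ITGA5 on fibronectin. Neither gene's antibody groups overlapped. The log2 fold changes were 1.44 ± 0.12 and 1.35 ± 0.12 for Mki67, and 1.28 ± 0.10 and 1.38 ± 0.11 for Top2a.

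The comparisons on the 2 surfaces share no library. Across the 47 genes their log2 fold changes had a Pearson correlation of 0.981 and a Spearman rank correlation of 0.968, which describes genes that share libraries and depth and carries no p. The largest difference for a gene was 0.281 (Ube2c), and the median difference, fibronectin minus uncoated, was 0.051. The antibody log2 fold change, averaged over both surfaces, had a Pearson r of -0.11 with log2 of the mean FPKM in IgG. With log2 of gene length it had a Pearson r of 0.11.

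**Figure D3:**
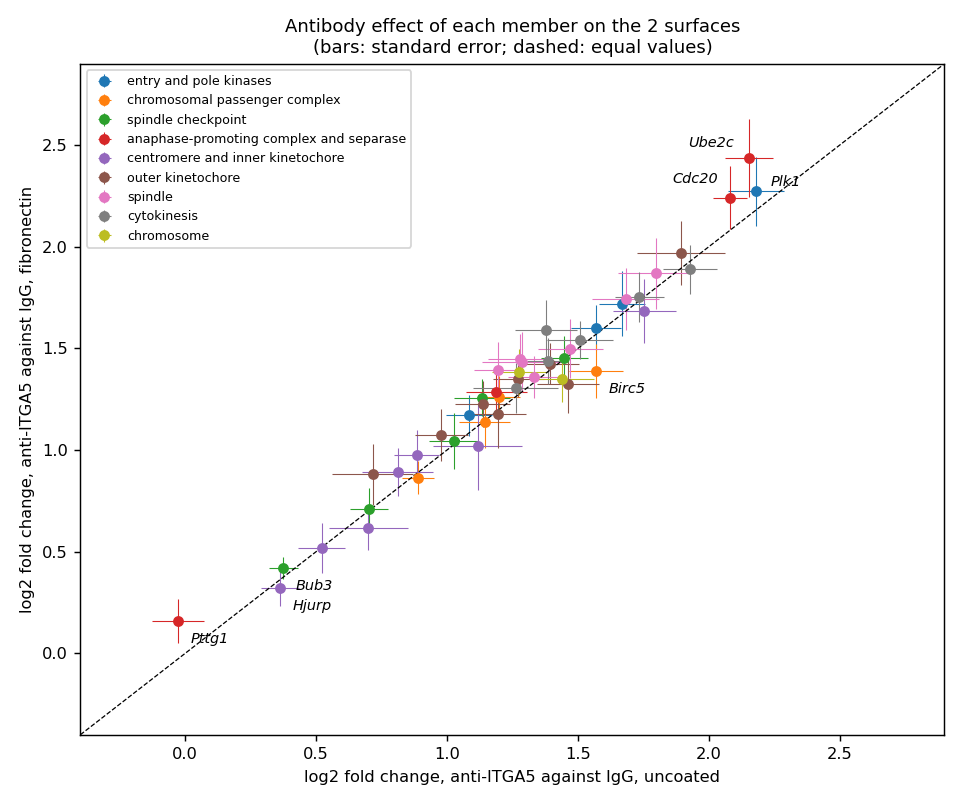
Each point is 1 of the 47 genes, coloured by role, at its log2 fold change for anti-ITGA5 against IgG on uncoated dishes (horizontal axis) and on fibronectin (vertical axis), with standard errors and a dashed line of equal values. Points run along the line from Pttg1 near 0 to Ube2c, Plk1 and Cdc20 above 2.

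The coating itself gave no call among the 47 genes. Its comparisons share their libraries with the antibody comparisons. In IgG, 0 of the 47 genes were called between fibronectin and uncoated dishes by edgeR, beside 0.449% of 12925 genes tested, and 0 had an unadjusted p under 0.05, beside 9.79% of all genes. DESeq2 also called 0, with 0 at an unadjusted p under 0.05. The median log2 fold change was -0.0015, with 23 genes above 0 and 24 below, from -0.22 (Ska1) to 0.22 (Birc5). That balance changed with 1 library left out: 5 of the 47 genes (without replicate 2 on fibronectin), 7 (without replicate 3 on uncoated dishes), 36 (without replicate 2 on uncoated dishes) or 41 (without replicate 3 on fibronectin) were above 0, and the median ran from -0.099 to 0.082. In these fits a library numbered 2 or 3 was left out, numbers that were highest and lowest for most of the 47 genes in every group. How far this moved the counts was not tested. With the replicate number as a block and all libraries kept, 22 of the 47 genes were above 0. In that edgeR fit 4 had an unadjusted p under 0.05, beside 14.6% of all genes, and none was called. Without replicate 2 on fibronectin, 11 of the 47 genes had an unadjusted p under 0.05, beside 10.8% of all genes, but the smallest adjusted p was 0.108 in edgeR and no gene was called. The smallest adjusted p in edgeR was 0.565, for Birc5, which was at 6.57, 8.76 and 6.42 FPKM on uncoated dishes and 9.12, 9.34 and 6.97 FPKM on fibronectin. The 95% intervals of all 47 genes held 0 and lay between -0.50 (Aspm) and 0.54 (Cenpm), so a coating effect of more than 1.45-fold upward was outside every one. For all 47 genes the libraries of the 2 surfaces overlapped in FPKM, and for 15.4% of all genes tested they did not.

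In anti-ITGA5, edgeR called 0 of the 47 genes between the surfaces, beside 0% of 12863 genes tested, and none had an unadjusted p under 0.05 (3.58% of all genes had). DESeq2 called 0 of the 47 as well and 5 of all genes, and with every gene of at least 1 count kept, edgeR called 327 of all genes, none of them a member. The median log2 fold change was 0.038, the values ran from -0.11 (Cit) to 0.19 (Nek2), and the smallest adjusted p was 0.979. Of the 47 genes 33 were above 0, but 8 were without replicate 2 on fibronectin, 18 without replicate 3 on uncoated dishes and 45 without replicate 3 on fibronectin, and the median ran from -0.054 to 0.15 with 1 library left out. With the replicate number as a block and all libraries kept, 32 were above 0. Without replicate 3 on fibronectin, 12 of the 47 genes had an unadjusted p under 0.05, beside 4.14% of all genes, and none was called. The intervals lay between -0.48 (Cit) and 0.58 (Cenpm). Libraries of both surfaces overlapped for each of the 47 genes, and for 9.74% of all genes tested they did not.

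The interaction, which asks over all 12 libraries whether the antibody effect differed between the surfaces, was called for 0 of the 47 genes by edgeR and by DESeq2, beside 0.0223% of 13455 genes tested. At an unadjusted p under 0.05 it held for 0 of the 47 and for 2.87% of all genes. Differences of log2 fold changes ran from -0.18 (Birc5) to 0.28 (Ube2c) with a median of 0.047 and 34 genes above 0, and the adjusted p in edgeR was 0.9997 for each. With 1 library left out the median ran from -0.065 to 0.17. Between 15 genes (without IgG replicate 2 on uncoated dishes) and 45 (without anti-ITGA5 replicate 3 on fibronectin) were then above 0, with 17 without IgG replicate 3 or anti-ITGA5 replicate 2 on fibronectin and 21 without anti-ITGA5 replicate 3 on uncoated dishes. With the replicate number as a block and all libraries kept, 32 genes were above 0. None was called. For Ube2c the interval of the difference was -0.27 to 0.83, the highest upper bound among the 47, so these libraries do not show that the 2 effects were alike at that gene.

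**Figure D4:**
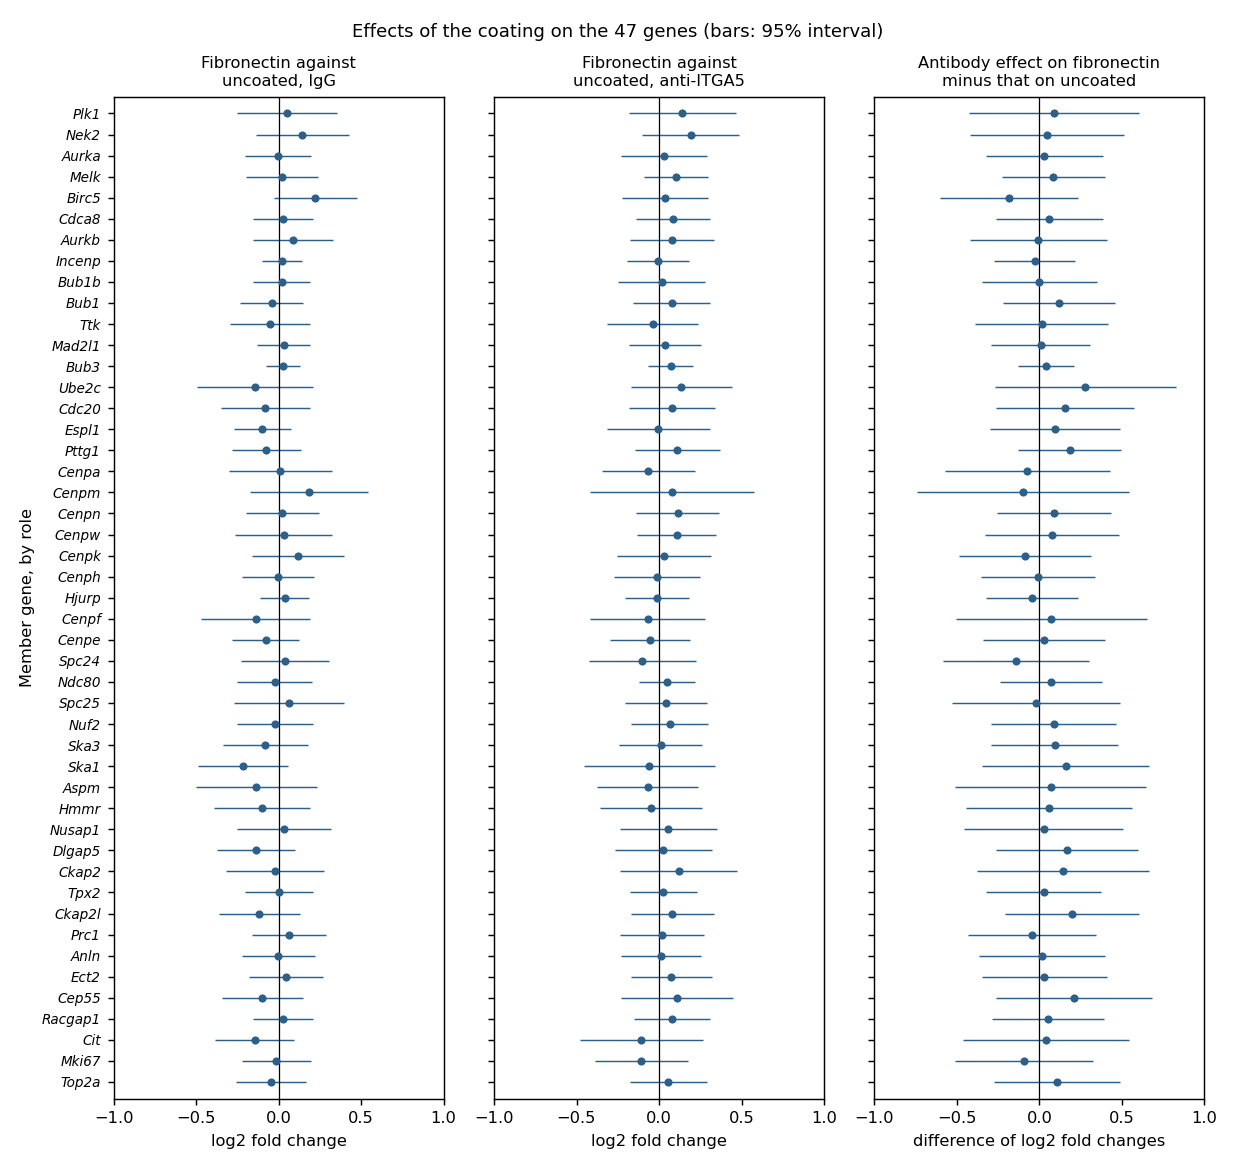
The panels give, for each of the 47 genes, the log2 fold change of fibronectin against uncoated dishes in IgG, the same in anti-ITGA5, and the difference of the antibody effects, each with its 95% interval. All intervals hold 0.

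Replicates of a group were not equal for these genes. In IgG on uncoated dishes, the library numbered 2 was the highest for 42 of the 47 genes and the library numbered 3 the lowest for 37. In anti-ITGA5 on uncoated dishes those counts were 30 and 40, in IgG on fibronectin 43 and 43, and in anti-ITGA5 on fibronectin 40 and 45. The median deviation of the 47 genes from the group mean, in log2 CPM, was 0.18 and -0.16 for the libraries numbered 2 and 3 in IgG and 0.11 and -0.13 in anti-ITGA5 on uncoated dishes. On fibronectin it was 0.21 and -0.19 in IgG and 0.19 and -0.28 in anti-ITGA5. Over all genes the median deviation was between -0.0027 and 0.0047. The labels give the numbers no meaning, and what they stand for was not tested.

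**Figure D5:**
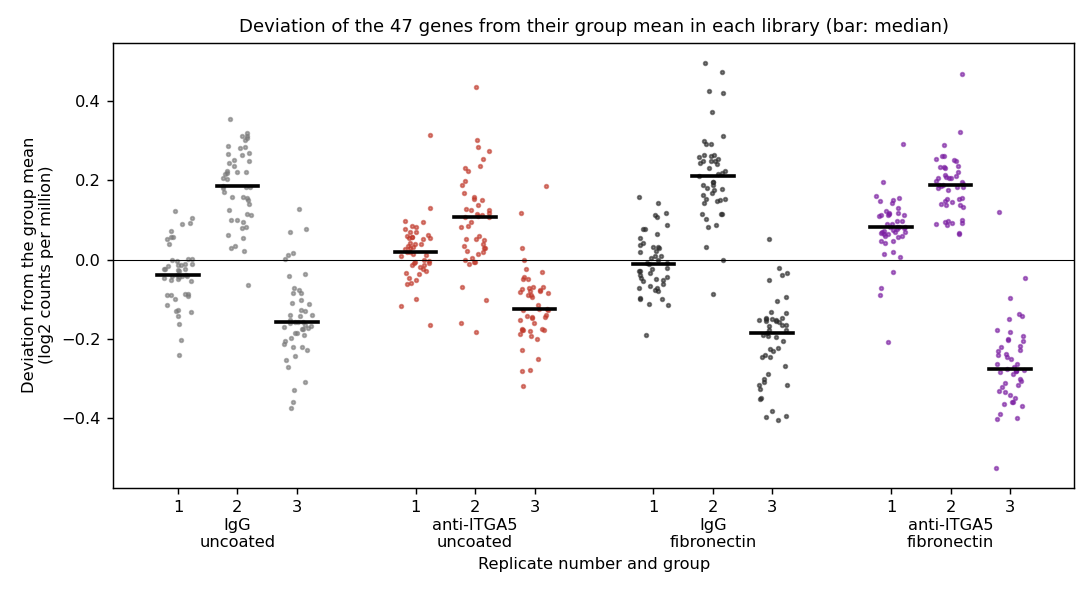
Points are the 47 genes, placed by library (replicate number within each group) and by their deviation from the group mean in log2 CPM, and bars are medians. The library numbered 2 has the highest median and the one numbered 3 the lowest in all 4 groups.

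Other genes of the same structures, taken from lists that were also drawn up with earlier results known, were fitted in the same tests. Of 30 other kinetochore and centromere genes, 24 were called higher on uncoated dishes and 25 on fibronectin, none lower, with medians of 0.68 and 0.77. Knl1, the platform for the checkpoint proteins, had the largest values of these (1.47 ± 0.14 and 1.55 ± 0.081). On uncoated dishes Zw10, of the kinetochore corona, was at -0.028 and its partner Zwint at 0.013, and neither had a call on either surface. Of 27 other spindle and centrosome genes, 19 and 22 were higher and none lower, with medians of 0.45 and 0.42. Fam83d had 2.04 ± 0.17 and 2.01 ± 0.15, close to the members with the largest changes, and the mitotic spindle genes Spag5, Troap and Tacc3 had 1.62, 1.59 and 1.23 on uncoated dishes. The clathrin heavy chain gene Cltc had -0.12 and 0.0058 and no call.

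Lists of other anaphase, cohesin, cytokinesis and replication genes had medians between -0.045 and 0.21. Of 17 other genes of the anaphase-promoting complex, 8 and 10 were higher and 1 and 2 lower, with medians of 0.21 and 0.20. Ube2s, which extends the ubiquitin chains that Ube2c begins, led with 0.93 ± 0.068 and 0.89 ± 0.092, and Cdc26, a small subunit, was lower at -0.24 ± 0.068 and -0.39 ± 0.082. Of 13 cohesin genes, 5 and 6 were higher and 1 and 0 lower, with medians of 0.16 and 0.15, and Rad21, the subunit that separase cuts, had 0.61 ± 0.055 and 0.71 ± 0.071. Of 18 other cytokinesis genes, most of which also serve cells that do not divide, 0 and 2 were higher and 2 and 2 lower, with a median of -0.045 and -0.042. At an unadjusted p under 0.05, 1 of the 18 was higher on uncoated dishes. Chmp4b, of the membrane scission machinery, was lower at -0.21 ± 0.064 and -0.33 ± 0.049. Of 30 DNA replication genes, 14 and 12 were higher and none lower, with medians of 0.19 and 0.16, and none reached a log2 fold change of 1. Tyms, the thymidylate synthase gene, had the highest of these on uncoated dishes, 0.75 ± 0.075. The share of all genes called lower was 9.79% and 13.2%, and the lower calls among the 18 cytokinesis genes came to 2 on each surface. Against the background of 11.0% and 14.4% of all genes called higher, the shares of these lists called higher ran from 0% (other cytokinesis genes) to 80% on uncoated dishes and from 11.1% to 83.3% on fibronectin.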

How the data were processed

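RNA-seq of 12 libraries was analysed, 3 for each combination of antibody and surface. The authors deposited counts per gene, without normalization, and FPKM per gene with gene coordinates and gene length (another deposited column, in bases). Per the study's methods, oligo(dT)-selected RNA was sequenced in pairs, aligned to GRCm38 with TopHat2 2.0.9, assembled with Scripture and Cufflinks 2.1.1, and counted with HTSeq 0.6.1. The tool behind the FPKM values is not given in the sources used here. Counts were fitted with edgeR 4.0.16 in R 4.3.3: filterByExpr (minimum count 10, minimum total 15), TMM scaling, quasi-likelihood test, Benjamini-Hochberg adjustment over all genes tested, calls at an adjusted p of 0.05 or less. A standard error is the log2 fold change over the square root of F, and intervals use the t quantile of the fit. Each surface and each antibody had its own fit of 6 libraries, and the interaction used all 12. The code was tested on simulated data. The members and gene lists were chosen with earlier results of these data known. Described with values were the 2 or 3 most abundant genes of each role and the 3 largest and 3 smallest antibody changes, and further genes were picked for naming with their values known. Alternatives were DESeq2 1.42.0, limma 3.58.1 on log2(FPKM + 1 or 0.1), other scalings and filters, thinned counts, a replicate block and leaving out each library. Protein motifs were not analysed here.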

Additional observations from a re-analysis of the deposited data

How the results depend on the processing

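Members called higher numbered 46 on uncoated dishes and 45 or 46 on fibronectin under all alternatives but limma without a filter, which gave 42 on each surface. None was called lower, and 0 were called in both coating comparisons and in the interaction under any alternative. The median log2 fold change on uncoated dishes was 1.11 in limma on log2(FPKM + 1), with or without the filter, a scale that compresses low genes. Left-out libraries gave medians of 1.19 to 1.40 on uncoated dishes and 1.26 to 1.47 on fibronectin. For Pttg1 on uncoated dishes the value was above 0 with total counts in place of TMM (0.012), and left-out libraries gave -0.095 to 0.021, above 0 without IgG replicate 3 or anti-ITGA5 replicate 2. The cause was not tested, and no setting called Pttg1. Hjurp on fibronectin was called in 9 of 17 alternatives. Over all genes, the count called higher on uncoated dishes was 684 in limma without a filter and 846 to 1992 with 1 library left out, beside 1419, and on fibronectin 1025 in limma, beside 1866. The coating in IgG gave 58 genes in edgeR, 128 in DESeq2, 241 with every gene of at least 1 count, 5, 7 and 17 in the limma fits, 11 with all 12 libraries in 1 fit and 9 to 101 with 1 library left out. In anti-ITGA5 the coating gave 0 genes, 327 with every gene of at least 1 count and at most 5 under any other alternative. The interaction gave 3 genes, 65 with every gene of at least 1 count, 1 to 7 in limma and 1 to 6 with 1 library left out.

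With the replicate number as a block, 46 members were called on each surface (median 1.28 and 1.36) and 0 in the other comparisons. The block gave 416 genes in all for the coating in IgG and a smallest adjusted p of 0.0943 among members. Deviations of same-numbered libraries had a median correlation of 0.080 (-0.031 to 0.149 over 18 pairs, 7 above 0.1), against -0.044 for libraries of different numbers (36 pairs, 1 above 0.1). As not every same-numbered pair was above 0.1 and the labels give the numbers no meaning, the main fits did not pair libraries. Same-numbered pairs were nonetheless above 0.1 more often than the others, and the members deviated by number alike in all 4 groups. The intervals and p-values of the main edgeR fits take no account of this. Counting depth limits Cenpm most, with 53 counts in 1 library.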

Other observations

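The E2F site, searched as TTTGGCGC, TTTCGCGC or TTTCCCGC on both strands of the same RefSeq windows, was more frequent in the windows of DNA replication genes than in those of the mitotic genes, a difference that was not tested. It was present in 11 of 25 replication gene windows (44%), in 3 of 8 windows of cohesin genes (37.5%) and in 1 of 41 windows of the mitotic genes (2.44%). The share was 2.24% over all windows and 3.77% over those of genes tested on uncoated dishes. The CHR showed the reverse order, with 6 of 25 replication gene windows (24%) against 30 of 41 (73.2%). CCAAT differed little, with 17 of 25 replication gene windows (68%) beside 30 of 41 (73.2%). The GC box (GGGCGG) was in 75.6% of the mitotic gene windows, in 42.9% of all windows and in 64.5% of those of genes tested on uncoated dishes. These are counts of letters and say nothing about bound factors.

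Of the 30 replication genes, 14 were called higher with the antibody on uncoated dishes and 12 on fibronectin. Pcna, the sliding clamp of DNA polymerase, was the most abundant of them and had antibody log2 fold changes of 0.10 and 0.037 on uncoated dishes and fibronectin, with no call on either surface. The 6 helicase genes Mcm2, Mcm3, Mcm4, Mcm5, Mcm6 and Mcm7 had -0.035 to 0.15 on uncoated dishes and 0.037 to 0.15 on fibronectin, with no call, and the replication initiation gene Mcm10 was higher on both (0.51 ± 0.060 and 0.43 ± 0.061). Counts on the mitotic genes without Mki67 and Top2a were 1268 to 1670 CPM in the 6 IgG libraries and 3001 to 4082 CPM in the 6 anti-ITGA5 libraries.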
